A study of Mus musculus with 2 samples.

Results

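Pvt1 is a long noncoding RNA gene downstream of the oncogene Myc on mouse chromosome 15, and its isoforms are described here from 1 deposited list of transcripts of mouse embryonic stem cells. Transcripts were taken by position and strand, as every plus-strand entry of the list that overlapped chr15:61863867-62209651 (mm9), which gave 284 of the 110003 transcripts in the list. The locus was chosen from its measured values, namely the number of transcripts listed there, so that number is a description and supports nothing. The cells were V6.5, a mouse embryonic stem cell line, grown on a layer of irradiated mouse embryonic fibroblasts. Polyadenylated RNA went into 1 library, and total RNA depleted of ribosomal RNA went into the other. Both libraries kept the strand of the RNA through dUTP labelling of the second cDNA strand. The list does not separate the 2 libraries, so the 2 kinds of RNA could not be compared. The sources used here do not state which of the listed transcripts derive from these libraries. The list has no column described as read counts either, so the depth behind a transcript is unknown. The share of the RNA that came from the feeder fibroblasts was not tested.

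Pvt1 is transcribed in the same direction as Myc, which encodes a transcription factor that drives cell growth. The locus is known as a site of retroviral insertion in mouse lymphomas and of chromosome translocations in plasma cell tumours, and in human cancers PVT1 is often amplified together with MYC. Its RNA is spliced from short exons across long introns and has no known protein product. As background, PVT1 RNA has been linked to the stability of the MYC protein, and the human PVT1 promoter to competition with MYC for enhancers.

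The sequences that identify the gene in the list are its shared first exon, the second annotated first exon, the exon present in the most listed transcripts, and both exons at which transcripts differed only in the end of the exon. All are printed 5′ to 3′ from the GENCODE release M21 transcripts (GRCm38, chromosome 15, plus strand), because the list itself holds no letters, and coordinates of the 2 builds are never interchanged. In the shared first exon, chr15:62037986-62038201 (GRCm38), capitals mark the 88 bases that lay in every listed transcript ending its first exon there. In the exon of 128 nt with 2 donors, chr15:62242174-62242301, capitals mark the 4 bases absent from the shorter form. In the exon of 139 nt, chr15:62244719-62244857, capitals mark the 16 bases absent from a shorter form that the annotation does not hold. The second first exon lies at chr15:62039257-62039447 and the most frequent exon at chr15:62242434-62242561.
Pvt1 shared first exon: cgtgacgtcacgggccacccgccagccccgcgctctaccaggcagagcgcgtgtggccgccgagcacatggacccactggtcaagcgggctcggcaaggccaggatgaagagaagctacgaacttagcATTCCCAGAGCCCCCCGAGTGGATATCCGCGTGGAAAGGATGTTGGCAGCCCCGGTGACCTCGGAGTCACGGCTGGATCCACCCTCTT
Pvt1 second first exon: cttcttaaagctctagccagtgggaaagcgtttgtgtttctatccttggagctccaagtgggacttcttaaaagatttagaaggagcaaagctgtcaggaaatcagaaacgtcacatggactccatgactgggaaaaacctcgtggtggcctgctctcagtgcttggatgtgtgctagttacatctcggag
Pvt1 exon with 2 donors: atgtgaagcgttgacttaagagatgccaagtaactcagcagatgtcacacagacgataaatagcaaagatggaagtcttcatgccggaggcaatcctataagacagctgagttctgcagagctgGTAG
Pvt1 most frequent exon: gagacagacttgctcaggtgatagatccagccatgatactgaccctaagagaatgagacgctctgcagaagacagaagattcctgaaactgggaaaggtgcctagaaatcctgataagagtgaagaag
Pvt1 exon with a donor not annotated: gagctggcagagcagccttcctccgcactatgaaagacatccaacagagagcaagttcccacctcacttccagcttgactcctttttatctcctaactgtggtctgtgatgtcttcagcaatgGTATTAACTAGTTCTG
In the shared first exon, the letters TGACGTCA, the palindromic cyclic AMP response element, which reads alike on both strands, begin at base 3. Of the 64 listed transcripts with this first exon, 7 start far enough upstream to hold them, namely 1 of 4 FT and 6 of 7 U, and 0 of 48 BROAD and 0 of 5 WHITEHEAD do. These letters stood in the first 216 bases of 15 of 8380 annotated lincRNA transcripts of at least that length (0.179%). In both exons with a shorter form, the letters that follow the shorter form are GT, the usual start of an intron.

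The 284 transcripts formed 1 locus with no break. By the start of their names, 221 were BROAD, 11 WHITEHEAD, 10 FT and 42 U. The sources used here do not explain these prefixes, which are used only as labels. After joining of gaps under 30 bp, 253 transcripts were spliced and 31 were single blocks. The spliced ones were all 221 BROAD, all 11 WHITEHEAD, 5 FT and 16 U transcripts. The file names no genes, so the label was checked by structure. Runs of an intron, an exon and an intron whose lengths are those of an annotated gene on the same chromosome and strand were looked up in GENCODE. Of the 246 transcripts with at least 3 exons, 180 held such a run of Pvt1, 0 held a run of another gene, and 0 transcripts outside the window held one of Pvt1. The match rate was 152 of 214 for BROAD, 7 of 11 for WHITEHEAD, 5 of 5 for FT and 16 of 16 for U.

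The prefixes differed in the size of their transcripts. BROAD transcripts had a median of 7 exons (range 2 to 10) and a median spliced length of 4132 nt (172 to 4627 nt). WHITEHEAD transcripts had a median of 5 exons (3 to 7) and 882 nt (422 to 1327 nt). FT transcripts had a median of 7 exons (5 to 10) and 1052 nt (715 to 3314 nt). U transcripts had a median of 6.5 exons (4 to 9) and 2520 nt (717 to 3072 nt). Most of the span was intron. The shortest of the 41 distinct introns was 132 bp, the median 23842 bp and the longest 137265 bp. The transcript with the longest spliced sequence, BROAD16833, joined exons of 117, 170, 318, 132, 82, 167, 128, 128, 139 and 3246 nt over 220092 bp. The transcript with the longest span, FT334019, covered 340042 bp with 10 exons and 3314 nt.

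**Figure D1:**
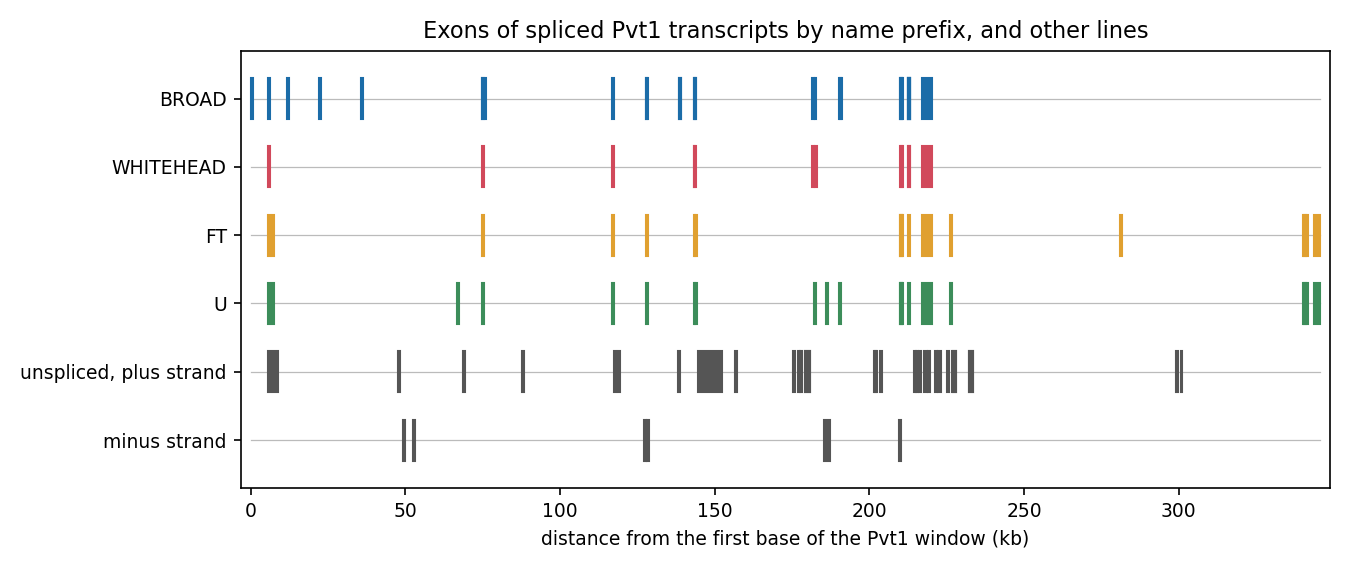
Positions of all exons of spliced Pvt1 transcripts for each name prefix, of the 31 unspliced plus-strand entries and of the 6 minus-strand entries, against the distance in kb from the first base of the window (features narrower than 0.6 kb are drawn 0.6 kb wide). Some exons stand at the same place under all 4 prefixes and others under 1 to 3, and the exons beyond the last BROAD exon belong to FT and U.

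Transcripts began at 16 first exons, defined by the position of their donor. Of these, 10 were used by BROAD, 3 by WHITEHEAD, 2 by FT and 7 by U, and 1 by all 4. The shared first exon ended at base 61869756 of chromosome 15 (mm9) and started between 61869541 and 61869669. It opened 64 transcripts, of which 48 were BROAD, 5 WHITEHEAD, 4 FT and 7 U. It is also the exon whose sequence is printed above with its last 88 bases in capitals. The first exon that opened the most transcripts was a different one. It lay at chr15:61863867-61863983 (mm9), was 117 nt long and started 5674 bp upstream of the shared first exon. It opened 96 BROAD transcripts and 0 transcripts of the other prefixes, and the annotation has no counterpart of its introns. The second annotated first exon, chr15:61870812-61871002 (mm9, 191 nt), opened 1 FT and 2 U transcripts.

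Further first exons lay inside the gene. The BROAD first exons at chr15:61980741-61980907 (167 nt) and chr15:62002382-62002410 (29 nt) each opened 20 transcripts, and the one at chr15:61991507-61991683 (177 nt) opened 21. A first exon ending at base 62007481 opened 7 BROAD and 3 WHITEHEAD transcripts, and one ending at 62054458 opened 6 BROAD and 2 U transcripts. The other first exons each opened 1 to 3 transcripts. Several first exons share their donor with an internal exon of other transcripts. Such internal exons lie at chr15:61980794-61980907, 61991552-61991683, 62007319-62007481 and 62054292-62054458. The first exon at chr15:62204031-62204153 is an internal exon of FT334019. Whether first exons of this kind are separate starts was not tested. Of the 16 first exons, 5 had an annotated counterpart. Starts of spliced transcripts fell into 18 clusters when ends within 50 bp were joined, and 2 of the 18 held more than 1 prefix. The cluster at 61869541 to 61869610 held 59 transcripts of 3 prefixes, and the 5 WHITEHEAD transcripts with the same donor all began at 61869669. The counts of first exons and of starts have no share over the whole list beside them, so they are not shown to be particular to Pvt1.

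A set of internal exons ran through the isoforms of all 4 prefixes. The annotation has a counterpart of 13 of the 17 internal exons, and 5 of the 17 were found under all 4 prefixes. No share over the whole list was set beside these counts of exons, so they are not shown to be particular to Pvt1. The exon of 128 nt at chr15:62073989-62074116 (mm9), printed above as the most frequent exon, was internal in 221 transcripts, of which 192 were BROAD, 9 WHITEHEAD, 5 FT and 15 U. The exon of 82 nt at chr15:62007022-62007103 was internal in 198 transcripts (180 BROAD, 4 WHITEHEAD, 4 FT and 10 U). The exon of 318 nt at chr15:61938703-61939020 was internal in 159 transcripts (141 BROAD, 5 WHITEHEAD, 4 FT and 9 U). The other 2 internal exons under all 4 prefixes were those of 124 and 139 nt, which end at alternative donors.

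The prefixes differed in the donors they held at these exons. At the exon starting at 62073729, the short form of 124 nt ended in 96 BROAD, 9 WHITEHEAD, 1 FT and 1 U transcripts. Its long form of 128 nt, with the 4 extra bases, ended in 96 BROAD, 0 WHITEHEAD, 4 FT and 14 U transcripts. Thus BROAD listed both forms equally often, FT and U mostly the long form, and WHITEHEAD the short form alone. The equal BROAD counts, here and at the next exon, follow from the listing of every exon path described below. They do not measure how often either donor was used. Both donors are annotated. The exon starting at 62076274 also had a pair of forms. Its long form of 139 nt was internal in 64 BROAD, 3 WHITEHEAD, 2 FT and 10 U transcripts. Its short form of 123 nt was internal in 64 BROAD and 3 WHITEHEAD transcripts and in 0 of FT and U. The short donor is not in the annotation, although it was listed under 2 prefixes.

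Some internal exons belonged to fewer prefixes. Exons of 170 nt (chr15:61875484-61875653), 163 nt (chr15:62007319-62007481) and 167 nt (chr15:62054292-62054458) were internal in 48, 63 and 54 BROAD transcripts and in 0 of the other prefixes. These counts need both ends of an exon to be the same. The 163-nt exon shares its donor with an annotated exon of 99 nt (chr15:62007383-62007481), internal in 1 FT and 2 U transcripts. The 167-nt exon shares its donor with the first exon of 2 U transcripts. An exon of 114 nt (chr15:61980794-61980907) was internal in 2 FT and 3 U transcripts. Its donor also ended the first exon of 20 BROAD transcripts, and its acceptor began the last exon of 1 WHITEHEAD transcript. The exons of 110, 123, 72 and 101 nt that lead into the far 3′ end, all annotated, were found only under FT and U.

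The 3′ ends were less varied than the starts. Of 253 spliced transcripts, 220 ended in the exon whose acceptor lies at 62080713, namely 194 BROAD, 9 WHITEHEAD, 3 FT and 14 U transcripts. Within that exon the end depended on the prefix. All 194 BROAD transcripts ended at 62083958, and all 9 WHITEHEAD transcripts ended at 62081160. The 3 FT transcripts ended at 62080778 or 62081079, and the 14 U transcripts at 62081082 or between 62082528 and 62082530. The exon was therefore listed with 66 to 3246 nt, and its 3246 nt in BROAD accounted for most of the spliced length of those transcripts. A last exon at chr15:62207579-62209651 (2073 nt), at the far end of the window, was used by 1 FT and 1 U transcript. Across the locus there were 9 last exons, 3 of them annotated, and 13 clusters of 3′ ends, of which 4 held more than 1 prefix. For last exons and 3′ ends too, no share over the whole list was set beside the counts. In the annotation, the polyadenylation word AATAAA stood in the last 50 bases of 6 of the 10 Pvt1 transcripts, 17 to 40 bases before the end counted from the first letter of the word. The words searched were AATAAA and ATTAAA on the transcript strand, and 38.5% of 8540 annotated lincRNA transcripts held one of them there. Most of the 6 Pvt1 transcripts end close to another of the 6 and share its word. Ends at 62249524, 62249526 and 62249528 (GRCm38) lay 36, 38 and 40 bases after the same first letter. Ends at 62250973 and 62250975 lay 17 and 19 bases after another. The 6 transcripts are therefore not separate cases, and no excess over 38.5% is shown.

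Isoforms of different prefixes shared introns more often than whole structures. Of the 41 introns, 35 (85.4%, 95% Wilson interval 71.6% to 93.1%, counting error only) were in at least 2 transcripts and 6 in 1. That share includes repeats within a prefix, and BROAD names list every path that their exons allow, as given below. It therefore does not measure sharing between prefixes, and no share over the whole list was set beside it. Under all 4 prefixes there were 8 introns, under 3 there were 3, under 2 there were 13 and under 1 there were 17. The intron in the most transcripts, 2157 bp at chr15:62074117-62076273 (mm9), was in 146. The introns of 132 bp and 136 bp that follow the long and the short form of the exon at 62073729 were in 114 and 107. The next by number were 15338 bp at chr15:61991684-62007021 in 83, 4300 bp at chr15:62076413-62080712 in 80 and 6596 bp at chr15:62074117-62080712 in 72. The last of these skips the exon of 139 or 123 nt. Introns of 68001, 66625, 4316 and 66247 bp were in 71, 68, 68 and 66 transcripts.

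**Figure D2:**
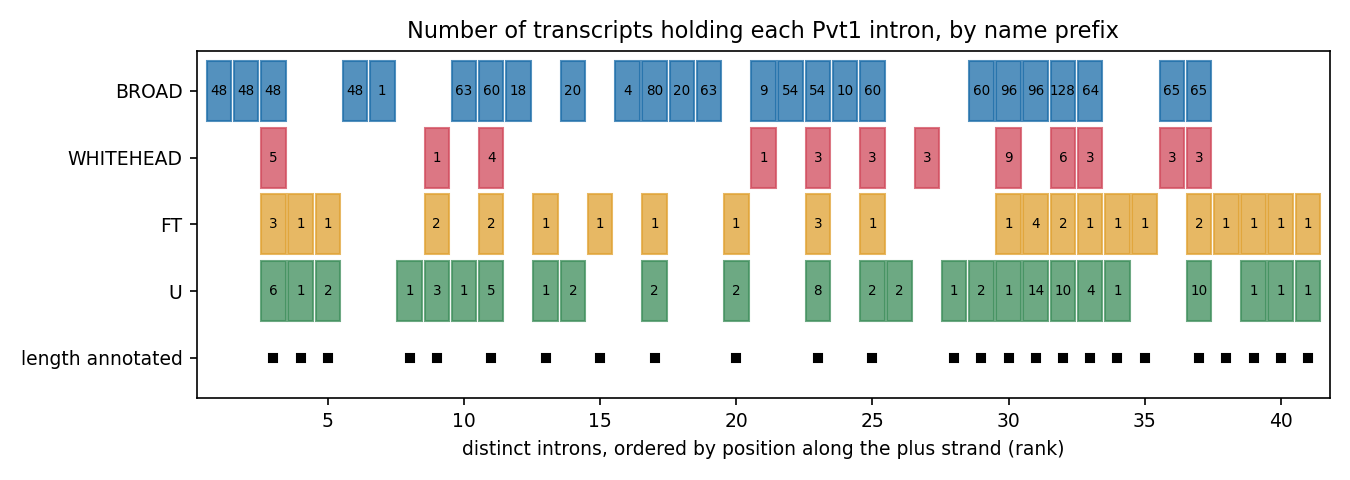
Number of transcripts of each name prefix that hold each of the 41 distinct Pvt1 introns, in order along the plus strand (rank on the horizontal axis); black squares mark the introns with a counterpart in the annotation. Empty cells mean that no transcript of that prefix held the intron; 8 columns are filled for all 4 prefixes.

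Of the 25 BROAD introns, 15 (60.0%, 95% Wilson interval 40.7% to 76.6%) also stood under another prefix, where 27.8% of BROAD introns in the whole list did so. For WHITEHEAD it was 11 of 12 (91.7%, 64.6% to 98.5%) against 48.3% in the whole list. For FT it was 19 of 22 (86.4%, 66.7% to 95.3%) against 81.7%, a share near that of the list. For U it was 22 of 25 (88.0%, 70.0% to 95.8%) against 28.9%. The list-wide share includes loci that hold a single prefix, and the locus was chosen for its many transcripts, so no test was made of these differences.

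Whole intron chains overlapped less. The 253 spliced transcripts had 238 distinct chains, and 223 of these stood under 1 prefix. BROAD alone held 210, U alone 8, WHITEHEAD alone 4 and FT alone 1. BROAD names list every path that their exons allow, as given below, so its 210 chains are combinations of exons. No share over the whole list was set beside these counts, so they are not shown to be particular to Pvt1. BROAD and WHITEHEAD shared 7 chains, BROAD and U 4, and FT and U 4. No chain was in more than 2 transcripts. U016292-18 and FT318474 shared a chain of 9 exons, which is that of the annotated Pvt1-201. BROAD16929 and U016292-5 shared one of 8 exons. WHITEHEAD9281 and BROAD16944 shared one of 7 exons with the short form of 124 nt and the long form of 139 nt, and WHITEHEAD7624 and BROAD16943 shared the one that differs by the form of 123 nt. U016292-13 and FT320103 had the 7 exons of Pvt1-208.

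The annotation lists 10 Pvt1 transcripts with 27 distinct introns, and 25 of the 27 were found in the list, all 25 with the same difference in position between the builds. FT and U each held 22 of the 27, BROAD 11 and WHITEHEAD 9. Of the 10 annotated chains, 6 were found whole, 5 under FT and 5 under U, and 0 under BROAD or WHITEHEAD. All 5 spliced FT transcripts had an annotated chain, against 5 of 16 U transcripts, 0 of 221 BROAD and 0 of 11 WHITEHEAD. FT334019 carried the chain of Pvt1-202. Introns without an annotated counterpart numbered 16 of 41, and 14 of the 25 BROAD introns were among them. How often each prefix held annotated introns or chains over the whole list was not set beside these counts. The differences between prefixes are therefore not shown to be particular to Pvt1.

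The 221 BROAD transcripts were every path that their exons allow. When each exon of the prefix was joined to each exon that some BROAD transcript placed next to it, from the 10 first exons to the 6 last exons, 221 paths resulted, and all 221 were listed, each once. The 11 WHITEHEAD transcripts were likewise the 11 paths through their 12 exons, 3 first exons and 3 last exons. Most loci of the list were alike in this. Every path was listed in 99.7% of the loci with at least 3 BROAD transcripts (299 of 300) and in 97.7% of those with at least 3 WHITEHEAD transcripts (171 of 175). A locus with few transcripts may have no path beyond those listed. How many of these loci could have failed was not counted. Exceptions included the BROAD part of Firre (414 of 12588 paths listed) and WHITEHEAD loci on chromosome 13 (590 of 3872) and chromosome 2 (44 of 76). With all 221 paths listed, the number of BROAD transcripts in Pvt1 is a count of combinations of exons, and a count of transcripts holding an exon is not a level of RNA.

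The deposited score behaved in the same way. It is a whole number that the sources used here do not explain, so values are compared only within a prefix. In Pvt1 the BROAD scores ran from 2 to 378 with a median of 212, the WHITEHEAD scores from 23 to 100 with a median of 35, and the FT scores from 992 to 1000, while every U score was 0. All 221 BROAD scores were exact sums of 1 term for each intron in the transcript. The 221 scores were set by 21 independent terms, which left 200 equations that could have failed. The 11 WHITEHEAD scores had 7 independent terms and 4 spare equations, also met exactly. Sums of this kind were exact in 100% of the BROAD loci with spare equations (126 of 126) and in 100% of such WHITEHEAD loci (86 of 86). A sum of 1 term per exon was exact in Pvt1 too, so the scores of Pvt1 alone do not separate the 2 kinds of sum. Across the list it was exact in 119 of the 126 BROAD and 84 of the 86 WHITEHEAD loci, and in the other 7 and 2 loci the sum per intron was exact where the sum per exon was not.

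In a sum of 1 term per intron, a BROAD transcript with 2 exons gives the term of its intron directly. The join of the shared first exon to the exon at 61938703 had a score of 18 (BROAD16907), and the join of the upstream first exon of 117 nt to the same exon had 4 (BROAD16812). The 4316 bp intron after the short form of 123 nt had 28 (BROAD17030), and the 4300 bp intron after the long form of 139 nt had 56 (BROAD17031). The other 3 such transcripts had 4, 2 and 6. Across the whole list, 5175 BROAD transcripts with 2 exons had a median score of 2 (quartiles 2 and 4, range 1 to 1961). The long donor of that exon therefore had the higher score under BROAD, and the shared, annotated first exon a higher score than the upstream one that opened more transcripts.

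Because the scores are sums, a choice between exons moves the score by a fixed amount in every pair of transcripts that differ in that choice alone, and the number of pairs is no replication. Where an exon is added, a transcript also gains an intron, so its sum has a further term. Among BROAD transcripts, the long form of 128 nt scored 119 higher than the short form of 124 nt (96 pairs), which is a difference of single terms. The long form of 139 nt scored 28 higher than that of 123 nt (64 pairs). Among WHITEHEAD transcripts the same choice gave 38 (3 pairs), so both prefixes placed the annotated donor above the one that is not annotated. Inclusion of the exon of 82 nt raised the BROAD score by 71 (18 pairs), that of 139 nt by 66, that of 123 nt by 38, that of 132 nt by 6 and that of 170 nt by 1. Inclusion of the exon of 163 nt changed it by -43 and that of 167 nt by -58 (54 pairs each), in spite of the further term. Those 2 exons are among the 3 that were internal only under BROAD. Under WHITEHEAD, inclusion of the exon of 139 nt raised the score by 46 and that of 123 nt by 8.

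**Figure D3:**
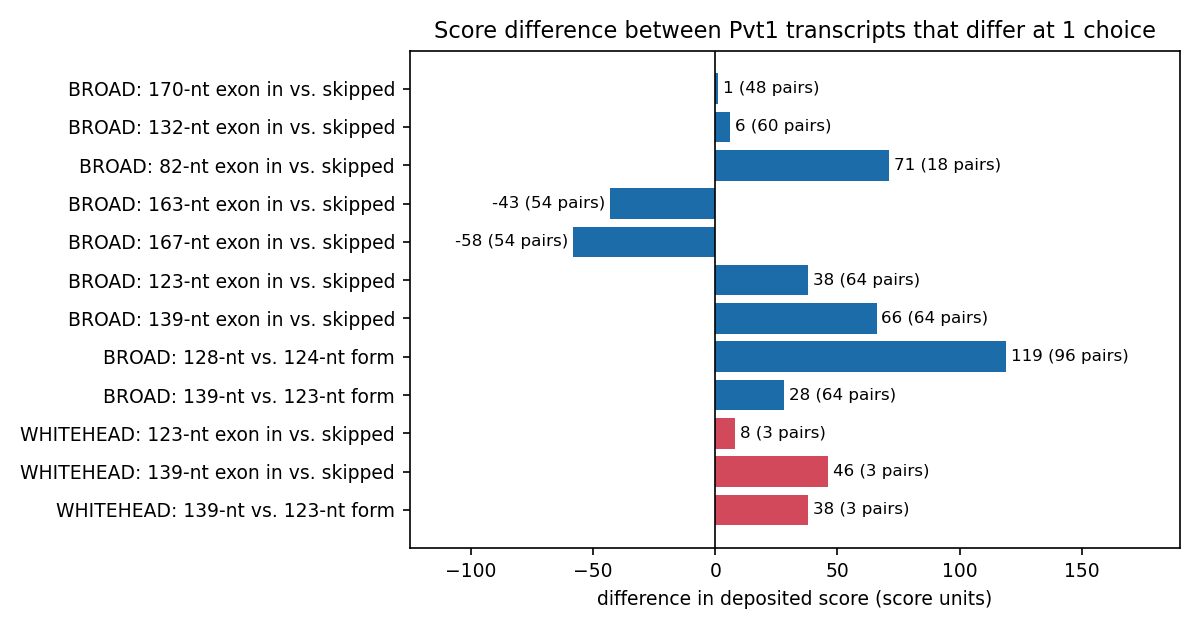
Difference in deposited score between Pvt1 transcripts of 1 prefix that differ only in whether an exon is included or in which form of an exon is used; bars give the difference in score units, identical in all pairs, with the number of pairs beside each bar. The choice between the 128-nt and 124-nt forms gives 119, and the exons of 163 and 167 nt give -43 and -58.

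The transcript with the highest BROAD score, BROAD16929 at 378, had the shared first exon, both long forms and the exons of 318, 132, 82 and 128 nt, and shared its chain with U016292-5. Transcripts that joined the upstream first exon of 117 nt directly to the exon of 318 nt had scores of 4 to 364, those that went through the exon of 170 nt had 5 to 365, and those with the shared first exon had 18 to 378, with 48 transcripts in each set. The highest WHITEHEAD score was 100 (WHITEHEAD9281), also from the shared first exon and the form of 139 nt. The lowest were 2 (BROAD16976, with 2 exons) and 23 (WHITEHEAD4644).

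Of the 31 unspliced plus-strand entries, 26 were U and 5 FT. They were 223 to 7869 nt long with a median of 566 nt, and 27 of the 31 overlapped no exon of a spliced transcript. FT38734 (chr15:61869557-61872624, 3068 nt) started inside the shared first exon, covered 200 of its bases and ran on past the second annotated first exon. The longest, U093616-1 (chr15:62008443-62016311, 7869 nt), lay in an intron, 961 bp from the nearest exon. FT33770 (1115 nt) and U186012-1 (542 nt) lay wholly within the long BROAD last exon, and U287658-1 overlapped an exon by 39 bases. The list names no library, so whether these entries come from RNA without a poly(A) tail cannot be told.

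On the minus strand the window held 6 entries, all U, unspliced and 236 to 1987 nt long with a median of 404 nt. None stood at the shared first exon, where the nearest minus-strand entry was 43475 bp away. U311510-1 (chr15:61990872-61991191) had its 5′ end 316 bp upstream of the BROAD first exon at 61991507, pointing away from it. That first exon shares its donor with the internal exon of 132 nt at chr15:61991552-61991683. Whether it is a separate start was not tested. U036227-1 (chr15:62049096-62051082, 1987 nt) covered the U first exon of 109 nt whole. In the annotation, the minus-strand processed pseudogene H2afy3 overlaps a Pvt1 exon of the same length. U058746-1 (chr15:62073374-62073698) lay 30 bp upstream of the exon at 62073729. U233851-1, U138404-1 and U291843-1 lay in introns. In all, 3 of the 6 had a 5′ end within 2000 bp of the start of a spliced plus-strand transcript.

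Outside the window, the nearest plus-strand entries, U311452-1 upstream and U130317-1 downstream, were unspliced and lay 37719 and 129713 bp away. Of 17 genes listed as the neighbourhood of Myc, 12 are in the annotation and 11 have enough exons to be matched by structure, and Pvt1 was the only 1 of the 11 with a match. Over the whole annotation, 15% of matchable genes had a match (3841 of 25611), and of protein-coding genes, which most of the 11 are, 1.72% (321 of 18681). Myc itself, whose annotated end lies 47611 bp before the start of Pvt1 in GRCm38, had 0 matching transcripts, as did Trib1, the gasdermin genes Gsdmc, Gsdmc2, Gsdmc3, Gsdmc4 and Gsdmcl1, Fam49b, Asap1 and Adcy8. The sources used here do not say what was left out of the list before deposit, so a gene without a match is not shown to be silent, and the count among these neighbours says nothing particular to them.

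Set beside the 54 other loci with at least 20 spliced transcripts, Pvt1 ranked 4th of 55 by distinct chains (238, where the median of all 55, Pvt1 included, was 27) and 14th by distinct introns (41, median 24). It had 5.8 chains per intron, again 4th of 55, where the median was 1.1. Pvt1 was chosen for its number of transcripts, and its number of chains follows from that number. The ranks by chains and by chains per intron therefore restate the choice. By chains per spliced transcript Pvt1 was 25th of 55 at 0.941, where the median was 0.927. The 3 loci nearest in number of introns differed widely in chains. An unmatched locus on the X chromosome had 41 introns and 19 chains, Platr21 had 40 introns and 38 chains, and an unmatched locus on chromosome 13 had 43 introns and 704 chains. Gm19705 on chromosome 1 had 25 introns and 247 chains. Firre, a nuclear RNA of the X chromosome, had 97 introns and 360 chains, and its BROAD part was the exception in which 414 of 12588 possible paths were listed. Among 20 long noncoding genes picked for comparison, 17 could be matched by structure and 9 had a match, a share near the 60% of all matchable lincRNA, antisense and processed transcript genes (3234 of 5386). Pvt1 had 180 matched transcripts, Firre 160 and Dleu2 19. Counted by locus rather than by match, Firre had more spliced transcripts (472) than Pvt1 (253). Miat had 6, Jpx 5, and Xist and Neat1 2 each, while Airn, Sox2ot and Snhg14 had 1 each.

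**Figure D4:**
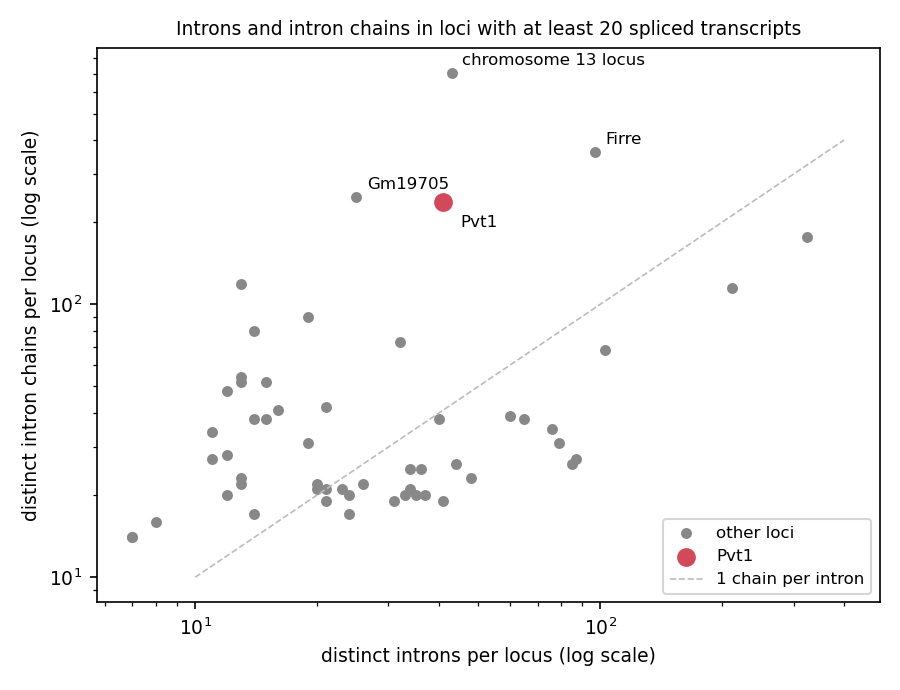
Distinct intron chains against distinct introns for the 55 loci with at least 20 spliced transcripts, both on log axes; the dashed line marks 1 chain per intron. Pvt1, with 41 introns and 238 chains, is 1 of 29 loci above the line, and the chromosome 13 locus, Gm19705 and Firre have more chains than Pvt1.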

How the data were processed

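RNA of V6.5 mouse embryonic stem cells was sequenced as 1 library of polyadenylated RNA and 1 of ribosomal-depleted RNA, both strand-specific per the labels' protocols. The submitters' processing notes name TopHat and mm9. The authors deposited 1 BED list with 12 columns, whose header names mm9. The assembly, filters, pooling and meaning of the score are not given in the sources used here. Each deposited score is a whole number, and scores were compared only within a name prefix.

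Python 3.11.15, numpy 2.4.6, scipy 1.17.1 and matplotlib 3.10.9 were used. Exon blocks less than 30 bp apart were joined, overlapping same-strand transcripts were merged into loci, introns were compared at exact positions, and ends within 50 bp formed a cluster. Exon paths were counted where a locus had at least 3 transcripts of a prefix. Scores were fitted by least squares with 1 term per intron or exon, and a residual up to 1e-06 was called exact. The scripts were tested on simulated transcripts. Genes were matched by intron and exon lengths to GENCODE release M21 (GRCm38), with no conversion of coordinates.

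The members and lists were chosen with earlier results of these data known. Named introns were the 10 in the most transcripts, with the first, last and annotated exons; named isoforms were 5 of the 15 chains tied at 2 transcripts, taken by more exons and then by position, and the largest per prefix. Transcripts of 1 locus stand in the same pooled list and are not replicates, so no test was made. With no column described as read counts the depth is unknown, and Wilson 95% intervals cover counting error over introns only.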

Additional observations from a re-analysis of the deposited data

How the results depend on the processing

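Of 82 values recomputed under another setting, 67 stayed close (counts within 1.5 times) and 15 moved. Without BROAD names the locus held 63 transcripts, 28 chains, 11 clusters of 5′ ends, 8 clusters of 3′ ends and a median spliced length of 1249.5 nt, since those names are most of its transcripts. Without U names, 68.4% of introns were in at least 2 transcripts. Counting introns within 10 bp as 1, with ends within 200 bp as 1 cluster, left 142 chains; this joins the forms that differ by 4 bases. Keeping only scores at or above the median of the prefix, a setting chosen after seeing the data, left 166 transcripts, 127 chains and 7 clusters of 3′ ends. With only introns in at least 2 FT transcripts, FT shared 100% with another prefix. Without joining of blocks the FT share was 70.4%, inside its Wilson interval of 66.7% to 95.3%, and was counted as close. Of the minus-strand entries, 1 overlapped a plus-strand exon and 0 were spliced. By chains per spliced transcript Pvt1 ranked 73rd of 219 loci with at least 10 spliced transcripts and 1st of 16 with BROAD names only, where chains and transcripts are equal in number. No paired analysis was possible because the list does not separate the libraries and no comparison between them was made. Unknown depth limits every absence reported: an isoform that is not listed is not shown to be absent from the cells.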
